A study of Mus musculus with 6 samples.

Results

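The 10 genes described here belong to the peroxiredoxin and thioredoxin system: the peroxiredoxins Prdx1, Prdx2, Prdx3, Prdx4, Prdx5 and Prdx6, the thioredoxins Txn1 and Txn2, the thioredoxin reductase Txnrd1 and the thioredoxin-interacting protein gene Txnip. They were taken by symbol, and all 10 were found among the 15483 genes measured.

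Peroxiredoxins are abundant enzymes that reduce hydrogen peroxide and other peroxides with a reactive cysteine. The cysteine is oxidised in the reaction. In most family members it is restored by thioredoxin, a small protein with a pair of cysteines in its active site, and thioredoxin is in turn reduced by thioredoxin reductase with electrons from NADPH. Txnip is an arrestin-like protein that binds reduced thioredoxin, inhibits it and limits glucose uptake. In T cells the system buffers the peroxide made on activation, and thioredoxin also supplies electrons to ribonucleotide reductase for DNA synthesis.

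The coding sequence around each active site shows how the classes differ, and it was read from the GENCODE M21 transcripts on GRCm38. The stretches below run 5′ to 3′ on the coding strand, with the codons of the catalytic cysteines in capitals and, in Txnrd1, the cysteine codon followed by the UGA codon that is read as selenocysteine. Prdx1 and Prdx2 are shown for the cytosolic 2-Cys class, Prdx5 for the atypical class and Prdx6 for the 1-Cys class.
Prdx1, exon 3, chr4:116691808-116691840, plus strand: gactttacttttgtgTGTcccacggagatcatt
Prdx2, exon 3, chr8:84970468-84970500, plus strand: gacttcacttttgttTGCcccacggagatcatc
Prdx5, across the junction of exons 2 and 3, chr19:6907668-6908008, minus strand: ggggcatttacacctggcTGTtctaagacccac
Prdx6, exon 2, chr1:161247353-161247385, minus strand: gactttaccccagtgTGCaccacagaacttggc
Txn1, exon 2, chr4:57951815-57951847, minus strand: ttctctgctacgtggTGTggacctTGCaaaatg
Txnrd1, exon 14, chr10:82896010-82896042, plus strand: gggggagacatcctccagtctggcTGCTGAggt
Prdx1 and Prdx2 share the same order of residues around the catalytic cysteine. Prdx6 has the same residue before that cysteine and another after it, and Prdx5 differs from them at both places. Txn1 has a second capital codon, since its active site holds 2 cysteines separated by glycine and proline.

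RNA was sequenced from cells labelled regulatory T cells, which are T cells that restrain immune responses, sorted from mouse bone marrow by a gate of CD3+, CD4+, NK1.1- and Foxp3+. There were 3 libraries from control mice and 3 from mice irradiated 3 months earlier, all of WT genotype. The labels give no radiation dose, age or sex, and they do not say whether each library came from a separate animal, so each p-value reflects only how much these libraries vary, which may be technical. Levels are given in FPKM, which scales the fragments of a gene by its length and by library size, so genes can be set side by side.

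The libraries correlated at r of 0.989 to 0.992 across genes within groups and at 0.974 to 0.978 between groups. Absolute depth is unknown, and relative to control replicate 1 it was 98.5% and 102.9% in the other controls and 81.6% to 92.7% in the irradiated libraries. Foxp3, the defining Treg factor, stood at 22.6 ± 1.93 FPKM in control and 12.6 ± 0.795 in irradiated libraries (SD, n = 3 each). The 15 neutrophil markers summed to 69227 to 74356 FPKM in control and 101014 to 103953 in irradiated libraries, and 11 of the 15 passed the test as higher. Of these, S100a8, S100a9 and Ngp hold top ranks, at which quantile normalization sets equal values by construction, so that alternative cannot show a change in them. The 12 T cell markers summed to 465.9 to 482.9 and 277.6 to 291.0 FPKM, with 11 of 12 lower (9 of 12 with no filter on low values). The 8 Treg markers summed to 198.0 to 205.9 and 114.6 to 128.9 FPKM, with 7 of 8 lower (4 of 8 with no filter on low values). The 12 macrophage markers (870.97 to 896 against 341.7 to 368.3 FPKM) fell in 12 of 12 cases and the 10 tested B cell markers (119.1 to 125.9 against 40.3 to 47.5) in 10. The 14 erythroid markers (1119 to 1369.5 against 759.2 to 792.7) fell in 7 cases, or 5 with no filter on low values. Eosinophil markers (5435 to 6008 against 3541 to 3599) fell in 7 of 9 cases and dendritic cell markers (231 to 241 against 110.5 to 124.6) in 7 of 7 tested. Plasma cell markers summed to 333.6 to 341.8 and 664.8 to 686.6 FPKM, with 5 of 9 higher and 1 lower (4 and 0 with no filter on low values). A marker at 0 in some library was found once each in the B cell and dendritic cell lists and in no other marker list. The groups differed in these marker sums throughout, and their part in the changes below was not tested. All genes together summed to 451444 to 470375 FPKM in control and 480854 to 485365 FPKM in irradiated libraries. The neutrophil sum was far above the T cell and Treg sums in all 6 libraries. The levels below are those of the whole libraries, and which cells gave the reads was not determined. In sorted bulk RNA, fewer cells of a type and less RNA per cell cannot be told apart.

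After irradiation, Txn1 and Prdx5 rose and Prdx1 fell, by between 15.1% and 24.6%, while the other 7 genes did not pass the test. That is 3 of 10 genes, or 30.0%, past an adjusted p of 0.05 (limma on log2(FPKM + 1), Benjamini-Hochberg adjustment over all genes), where 16.6% of all 10666 genes tested passed. Higher calls made up 6.29% of all genes tested (671 genes) and lower calls 10.3% (1100 genes), and with 10 genes nothing here is called particular to them. Leaving out single libraries gave 414 to 684 higher calls, the lowest without control replicate 2, and 709 to 968 lower calls. For the same 3 genes the values of the groups did not overlap, against 33.6% of all genes tested. The median log2 change was -0.02 over the 10 genes and -0.02 over all genes.

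**Figure D1:**
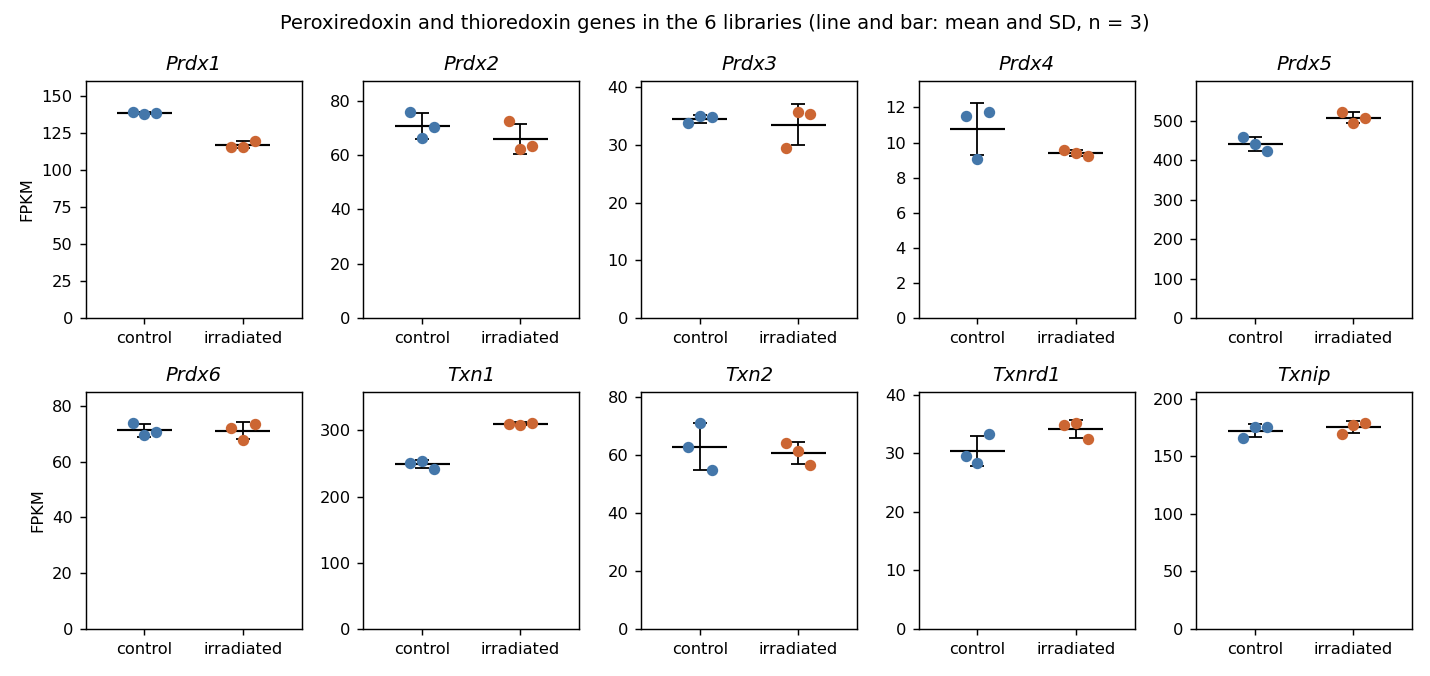
Each panel shows 1 gene, with FPKM on a linear axis from 0, a point for each of the 3 control and 3 irradiated libraries, and the mean and SD. The groups are apart in the panels of Prdx1 (137.8 to 139.2 against 115.8 to 119.8 FPKM), Prdx5 (422.4 to 459.4 against 493.8 to 521.7) and Txn1 (241.7 to 253.5 against 307.5 to 311.6).

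Prdx1, a cytosolic 2-Cys peroxiredoxin that reduces hydrogen peroxide and is recycled by thioredoxin, lies on chromosome 4 (GRCm38, 116685544 to 116700822, plus strand, 6 exons). It stood at 139.2, 137.8 and 138.3 FPKM in the control libraries and at 115.8, 115.8 and 119.8 FPKM in the irradiated ones. Every irradiated library was below every control, and the 3 controls lay close together. The mean fell by 15.4%, from 138.4 ± 0.741 to 117.1 ± 2.33 FPKM (SD, n = 3), a log2 change of -0.24 ± 0.05 (SE, adjusted p = 0.00497 in limma). The call ended, with the same estimate, when the variance was fitted without a trend on expression (adjusted p = 0.0600).

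Prdx2, its close cytosolic relative and one of the most abundant proteins of red cells, was at 75.8, 66.3 and 70.3 FPKM in control and 72.3, 62.1 and 63.1 FPKM in irradiated libraries. The groups overlapped, and the log2 change was -0.10 with a 95% interval of -0.27 to 0.06 (adjusted p = 0.388). Leaving out 1 library moved the estimate from -0.05 (without control replicate 1) to -0.17 (without irradiated replicate 1), and none of these fits passed. The interval covers a decrease of the size seen for Prdx1 as well as no change. Of the 14 erythroid markers, 7 passed as lower in the irradiated libraries, the globin genes among them. Their part in the Prdx2 values was not tested.

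Prdx3, the 2-Cys peroxiredoxin of the mitochondrial matrix, was at 33.8, 34.96 and 34.9 FPKM in control and 29.4, 35.7 and 35.4 FPKM in irradiated libraries. Irradiated replicate 1 alone was low, and the other irradiated libraries were above all controls. The log2 change was -0.05 with an interval of -0.23 to 0.13 (adjusted p = 0.757), and without irradiated replicate 1 the estimate was 0.04. Prdx4, the peroxiredoxin of the endoplasmic reticulum, had the lowest level of the 10 genes. It was at 11.5, 9.07 and 11.7 FPKM in control and 9.56, 9.41 and 9.26 FPKM in irradiated libraries. Control replicate 2 was below all irradiated libraries, and the log2 change was -0.17 with an interval of -0.42 to 0.08 (adjusted p = 0.352). It was -0.28 without control replicate 2 and -0.11 without control replicate 3, and neither fit passed.

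Prdx5, the atypical 2-Cys peroxiredoxin found in mitochondria, peroxisomes and cytosol, was the most abundant of the 10 genes and ranked 128 of 15483 by mean level. It lies on chromosome 19 (6906697 to 6910106, minus strand, 6 exons). The control libraries held 459.4, 439.7 and 422.4 FPKM and the irradiated libraries 521.7, 493.8 and 505.3 FPKM, with no overlap. The mean rose by 15.1%, from 440.5 ± 18.5 to 506.9 ± 14.0 FPKM (SD, n = 3), a log2 change of 0.20 ± 0.05 (SE, adjusted p = 0.0114). The call ended without irradiated replicate 1, the highest library (log2 change 0.18, adjusted p = 0.0564), and with no variance trend (adjusted p = 0.122).

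Prdx6, the 1-Cys peroxiredoxin, which is recycled by glutathione and also has phospholipase activity, was at 73.9, 69.4 and 70.4 FPKM in control and 72.1, 67.7 and 73.4 FPKM in irradiated libraries. The means were 71.2 ± 2.39 and 71.1 ± 2.99 FPKM (SD, n = 3), and the 95% interval of the log2 change ran from -0.13 to 0.12 (adjusted p = 0.977). A change as large as that of Txn1 lies outside this interval.

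**Figure D2:**
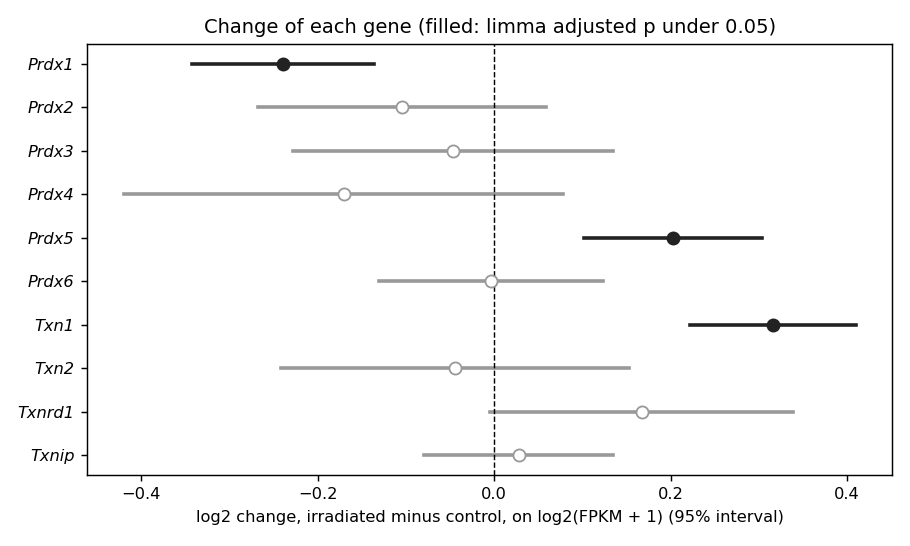
The log2 change of each of the 10 genes, irradiated minus control on log2(FPKM + 1), is shown as a point with its 95% interval, filled where the adjusted p is under 0.05. The filled points are Prdx1 at -0.24, Prdx5 at 0.20 and Txn1 at 0.32, and the interval of Txnrd1 just includes 0.

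The make-up of the peroxiredoxin transcripts was taken as each gene's share of their summed FPKM, a quantity that does not depend on how libraries are scaled. Summed over Prdx1 to Prdx6 the libraries held 793.7, 757.2 and 748.0 FPKM in control and 820.9, 784.6 and 806.4 FPKM in irradiated samples, and these ranges overlapped. Prdx5 made up 57.9%, 58.1% and 56.5% of that sum in control and 63.6%, 62.9% and 62.7% in irradiated libraries. Its mean share was 57.5% ± 0.872 and 63.1% ± 0.457 (SD, n = 3), a difference of 5.58 percentage points without overlap (two-sided exact permutation p = 0.1, the smallest that 3 against 3 can give).

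Prdx1 made up 17.5%, 18.2% and 18.5% of the sum in control and 14.1%, 14.8% and 14.9% in irradiated libraries, also without overlap (exact permutation p = 0.1). Prdx6, with means of 71.2 and 71.1 FPKM, held 9.32%, 9.16% and 9.41% against 8.78%, 8.63% and 9.10%, again without overlap (exact permutation p = 0.1). The shares of Prdx2 (9.24% ± 0.419 and 8.18% ± 0.545), Prdx3 (4.51% ± 0.224 and 4.18% ± 0.520) and Prdx4 (1.41% ± 0.191 and 1.17% ± 0.0256) overlapped between the groups, with exact permutation p of 0.2, 0.5 and 0.2 (SD, n = 3). The 6 shares add to 100% in each library, so they are not independent of each other. With p no lower than 0.1, none could pass a threshold of 0.05 before or after adjustment. How often shares, ratios or sums of other genes fail to overlap was not computed.

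**Figure D3:**
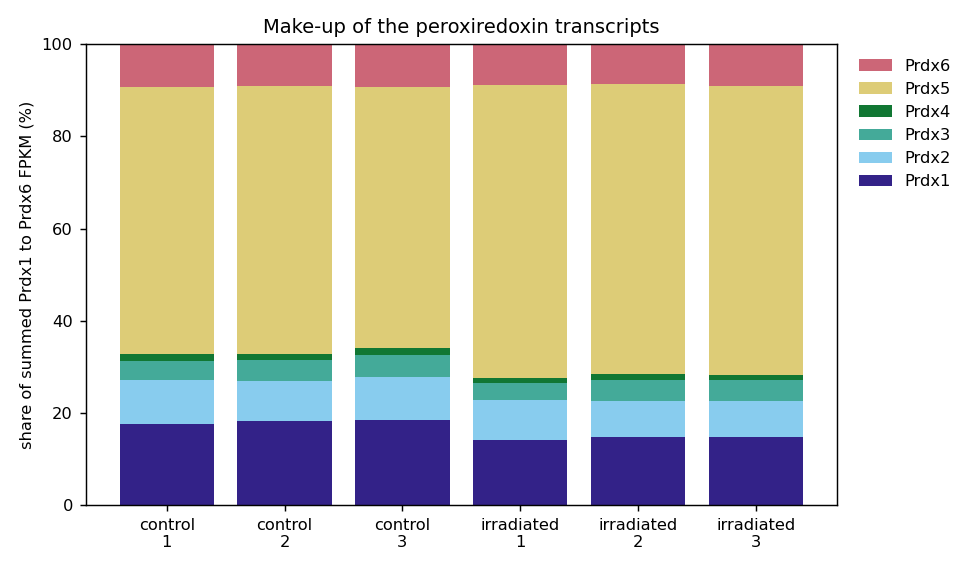
Each bar is 1 library, and its segments are the percent of the summed FPKM of Prdx1 to Prdx6 that each gene supplied. The Prdx5 segment takes 56.5% to 58.1% in the 3 control bars and 62.7% to 63.6% in the 3 irradiated bars, and the Prdx1 segment is smaller in the irradiated bars.

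Txn1, the cytosolic thioredoxin that reduces peroxiredoxins, ribonucleotide reductase and many transcription factors, had the largest log2 change of the 10 genes. It lies on chromosome 4 (57943373 to 57956411, minus strand, 5 exons) and ranked 205 of 15483 by level. The control libraries held 250.9, 253.5 and 241.7 FPKM and the irradiated libraries 310.3, 307.5 and 311.6 FPKM. All irradiated libraries were above all controls, and the spread within either group was small beside the gap. The mean rose by 24.6%, from 248.7 ± 6.19 to 309.8 ± 2.08 FPKM (SD, n = 3), a log2 change of 0.32 ± 0.04 (SE, adjusted p = 0.000401). It passed in all 15 alternative analyses, with a log2 change of 0.29 to 0.35.

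Txn2, the thioredoxin of mitochondria, was at 62.7, 71.0 and 54.6 FPKM in control and 63.98, 61.3 and 56.5 FPKM in irradiated libraries. The controls spread over all the irradiated values, and the log2 change was -0.04 with an interval of -0.24 to 0.15 (adjusted p = 0.792). The upper bound of that interval lies below the estimate for Txn1. The difference between the 2 changes was not itself tested.

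Txnrd1, the cytosolic selenoenzyme that reduces Txn1, was at 29.5, 28.3 and 33.3 FPKM in control and 34.8, 35.2 and 32.4 FPKM in irradiated libraries. Control replicate 3 was above irradiated replicate 3, so the groups overlapped. The means were 30.4 ± 2.59 and 34.2 ± 1.51 FPKM (SD, n = 3), and the log2 change was 0.17 ± 0.08 (SE, adjusted p = 0.179), which passed in 0 of 15 alternative analyses.

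Txnip, the inhibitor of thioredoxin, was at 165.6, 175.2 and 175.4 FPKM in control and 169.7, 177.4 and 179.1 FPKM in irradiated libraries. The groups overlapped, and the ratio of irradiated to control had a 95% interval of 0.946 to 1.10 (adjusted p = 0.757). Set against Txn1 within each library, Txnip stood at 0.660, 0.691 and 0.726 in control and at 0.547, 0.577 and 0.575 in irradiated samples. Every irradiated library had a lower Txnip to Txn1 ratio than every control. The mean ratio was 0.692 ± 0.0330 and 0.566 ± 0.0168 (SD, n = 3), a difference of -0.29 on the log2 scale (two-sided exact permutation p = 0.1, the smallest possible). By itself Txnip changed by 0.03 and Txn1 by 0.32 on the log2 scale. The lower ratio thus restates the Txn1 change and is not a separate result.

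Among the levels themselves the order by mean FPKM over the 6 libraries was Prdx5 (473.7), Txn1 (279.2), Txnip (173.7), Prdx1 (127.8), Prdx6 (71.2), Prdx2 (68.3), Txn2 (61.7), Prdx3 (34.0), Txnrd1 (32.3) and Prdx4 (10.1). Neighbours whose ranges over libraries overlapped were Prdx6 with Prdx2, Prdx2 with Txn2, and Prdx3 with Txnrd1. The cytosolic thioredoxin stood above the reductase that serves it, and the mitochondrial pair of Prdx3 and Txn2 lay between the extremes. All 10 genes together made up 0.275% to 0.278% of the summed FPKM in control libraries and 0.283% to 0.291% in irradiated ones, ranges that did not overlap. The sums were 1253 to 1302 FPKM and 1366 to 1399.6 FPKM. They include Txn1 and Prdx5, which rose, and Prdx1, which fell, so the difference is not a result separate from those changes.

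Some of these levels may hold reads of other loci. On GRCm38, exons of Prdx5 overlap those of Trmt112, a methyltransferase cofactor on the opposite strand, over 409 bases, and the strand setting of the counting is not given in the sources used here. Trmt112 was at 52.7 ± 2.43 FPKM in control and 46.8 ± 3.68 in irradiated libraries (SD, n = 3, adjusted p = 0.139), and its part in the Prdx5 values was not tested. Prdx2 exons overlap those of Rnaseh2a over 177 bases and of Junb over 173 bases, both on the opposite strand, and Txnip exons overlap the antisense gene Gm15441 over 606 bases. Junb was at 105.4 ± 7.19 and 116.5 ± 3.47 FPKM (adjusted p = 0.125) and Rnaseh2a at 16.6 ± 0.582 and 14.8 ± 2.99 FPKM (adjusted p = 0.413).

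Copies of similar sequence add to the uncertainty for Prdx1, Prdx2, Prdx6 and Txn1. The copies named here are not among the genes measured. The closest copy of Prdx1, the processed pseudogene Gm21399, matched its transcript at 98.3% over 597 bases, and Tdpx-ps1 matched Prdx2 at 96.3% over 597 bases. Txn-ps1 matched Txn1 at 95.8% over 309 bases and Prdx6b matched Prdx6 at 90.1% over 1444 bases. How reads were divided between these copies and their parents was not analysed here.

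The bases before the start sites were examined for the genes that changed, together with Txnrd1. Of the 10 genes, 9 matched the RefSeq promoter table (GRCm38.p6) by symbol, with 11 promoters of 250 bases before to 50 after a start, and Prdx6 did not. The core of the antioxidant response element, to which Nrf2 binds with small Maf proteins, was searched as TGACNNNGC on both strands. It was present in 2 of the 11 promoters, those of Prdx1 and of the second start of Txnrd1, and in 12.4% of all 32851 promoters in the table. The core lay with its first base 133 bases before the start of Prdx1 and 92 bases before that of Txnrd1. In the sequences below, 250 bases before each start and 5′ to 3′ on the strand of the gene, the core is in capitals, and none is found in the windows of Txn1 and Prdx5.
Prdx1, chr4:116685349-116685598, plus strand: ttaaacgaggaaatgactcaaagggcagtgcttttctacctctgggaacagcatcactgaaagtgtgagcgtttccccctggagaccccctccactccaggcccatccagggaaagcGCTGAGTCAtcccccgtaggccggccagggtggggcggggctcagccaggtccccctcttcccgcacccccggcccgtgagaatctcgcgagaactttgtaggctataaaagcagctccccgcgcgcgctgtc
Txnrd1, second start, chr10:82858956-82859205, plus strand: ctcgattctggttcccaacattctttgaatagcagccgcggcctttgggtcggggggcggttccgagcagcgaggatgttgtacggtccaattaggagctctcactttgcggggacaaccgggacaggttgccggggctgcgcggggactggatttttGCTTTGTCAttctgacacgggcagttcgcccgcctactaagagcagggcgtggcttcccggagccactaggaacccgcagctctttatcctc
Txn1, chr4:57956412-57956661, minus strand: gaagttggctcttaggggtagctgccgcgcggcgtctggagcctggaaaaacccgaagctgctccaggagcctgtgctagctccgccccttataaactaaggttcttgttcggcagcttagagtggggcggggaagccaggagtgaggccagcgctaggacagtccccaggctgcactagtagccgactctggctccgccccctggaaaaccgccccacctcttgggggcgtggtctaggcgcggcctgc
Prdx5, chr19:6910107-6910356, minus strand: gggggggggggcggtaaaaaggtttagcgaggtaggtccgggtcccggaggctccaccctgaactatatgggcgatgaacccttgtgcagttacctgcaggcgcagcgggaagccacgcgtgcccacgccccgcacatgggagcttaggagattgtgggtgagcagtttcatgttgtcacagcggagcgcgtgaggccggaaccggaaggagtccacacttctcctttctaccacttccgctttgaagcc
The GC box GGGCGG, bound by Sp-family factors, was found on either strand in 9 of the 11 promoters and in 35.7% of all promoters, with 4 copies in the Txn1 promoter. A TATAAA match, on either strand and at any place in the window, was found for Prdx1, Prdx3 and Txn1 and in 13.6% of all promoters. Its distance from the start was not weighed, and the Prdx3 match lay on the opposite strand. CACGTG, the E-box letters, occurred in the Prdx4 promoter and in 7.15% of all promoters. Within these windows, the Nrf2 core letters were found for Prdx1, which fell, and for Txnrd1, which did not pass the test. Bases outside the windows were not searched, and neither binding by Nrf2 nor its part in the changes was tested.

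The genes around the system were described by lists, read against the 6.29% higher and 10.3% lower calls of all genes. Among 25 relatives of the thioredoxin fold and of thioredoxin reductase, 2 rose and 2 fell, with a median log2 change of -0.05 that ran from -0.05 to 0.01 over the fits leaving out 1 library and was above 0 without irradiated replicate 3. Glrx, the cytosolic glutaredoxin, rose from 113 ± 7.55 to 133 ± 5.79 FPKM (SD, n = 3, adjusted p = 0.0217), and the membrane thioredoxin-related gene Tmx4 rose by a log2 change of 0.25 (adjusted p = 0.0455). Txndc16 (-0.41, adjusted p = 0.0214) and Pdia4, a disulphide isomerase of the endoplasmic reticulum (-0.23, adjusted p = 0.0407), fell. The other reductases Txnrd2 (0.04) and Txnrd3 (0.30) did not pass (adjusted p = 0.899 and 0.465).

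Of 12 tested genes listed under peroxiredoxin repair and thioredoxin clients, 3 rose and 1 fell, with a median of 0.06 (0.01 without irradiated replicate 3 to 0.12 without control replicate 3). Rrm2, the small subunit of ribonucleotide reductase, rose from 99.04 ± 1.87 to 125 ± 3.04 FPKM (SD, n = 3), a log2 change of 0.34 (adjusted p = 0.000695). Rrm1, the large subunit of this thioredoxin client, was at 71.4 ± 4.65 and 71.6 ± 3.37 FPKM (adjusted p = 0.972). It is outside the naming rule and given for its role. The methionine sulphoxide reductases Msra (0.29, adjusted p = 0.0310) and Msrb1 (0.16, adjusted p = 0.0303) also rose. Sesn3, a sestrin, fell from 10.1 ± 0.782 to 4.38 ± 1.23 FPKM, with a log2 change of -1.07 (adjusted p = 0.00109). Whether Sesn3 acts on peroxiredoxins was not tested. Sulphiredoxin, Srxn1, which restores overoxidised peroxiredoxins, was near the level needed for testing, at 1.2 ± 0.353 and 1.42 ± 0.485 FPKM (adjusted p = 0.730).

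Among 12 tested genes listed as arrestin relatives and regulators of Txnip, 2 rose and 1 fell, with a median of -0.02. The list also holds Slc2a1, Slc2a3 and Nlrp3, which are neither. The median turned to 0.0058 under median-of-ratios scaling, 0.0062 under quantile normalization and 0.04 without control replicate 3. Its lowest value, -0.04, came without control replicate 2. Arrb2, beta-arrestin 2, rose from 171 ± 10.7 to 261 ± 5.72 FPKM, with a log2 change of 0.61 (adjusted p = 1.69e-05), and the glucose transporter Slc2a3 rose by 0.53 (adjusted p = 0.000107). Arrdc4, an arrestin relative of Txnip, fell from 6.87 ± 0.646 to 4.88 ± 0.419 FPKM, with a log2 change of -0.42 (adjusted p = 0.0371).

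The glutathione enzymes, the parallel route for peroxide removal, held 5 higher and 0 lower genes of 19 tested by limma, with a median of 0.09 (6 higher and 1 lower at an unadjusted p under 0.05). The median was 0.01 without irradiated replicate 1, 0.06 without control replicate 3 and 0.14 without control replicate 2 or irradiated replicate 2, and 1 gene passed as lower without irradiated replicate 2. Gsr, the glutathione reductase, rose from 209.7 ± 6.75 to 286 ± 1.96 FPKM, with a log2 change of 0.45 (adjusted p = 4.26e-05). Gclm, the modifier subunit of the enzyme that starts glutathione synthesis, rose by 0.43 (adjusted p = 0.00362). Ggt1, which breaks down extracellular glutathione, rose from 2.65 ± 0.446 to 7.76 ± 1.10 FPKM, and Gstm1, a glutathione transferase, rose by 0.25 (adjusted p = 0.000118 and 0.00492). The fifth, Mgst2, was named after its values were seen (0.28, adjusted p = 0.0294). Gpx1, the most abundant glutathione peroxidase here, was at 1014 ± 31.1 and 1020.4 ± 2.65 FPKM (adjusted p = 0.902), outside the naming rule and given for its role.

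Catalase, the superoxide dismutases and the haem oxygenases held 0 higher and 2 lower genes of 6 tested by limma, with a median of -0.18 (0 higher and 3 lower at an unadjusted p under 0.05). Cat, the peroxisomal catalase, fell from 41.6 ± 0.618 to 28.6 ± 2.30 FPKM, with a log2 change of -0.53 (adjusted p = 0.000456). Hmox1, the inducible haem oxygenase, fell from 109 ± 5.34 to 60.3 ± 2.36 FPKM, with a log2 change of -0.85 (adjusted p = 2.96e-06). Haem-handling macrophages express Hmox1, and all 12 macrophage markers were lower in the irradiated libraries, as given above. Their part in this change was not tested.

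NADPH feeds both the thioredoxin and the glutathione reductases. Of 13 tested genes for its supply, 2 rose and 1 fell, with a median of 0.01 that was below 0 in 5 of the 6 fits leaving out 1 library, all but that without irradiated replicate 3 (range -0.05 to 0.01). G6pdx, the entry enzyme of the pentose phosphate pathway, rose from 209 ± 13.1 to 331 ± 5.58 FPKM, with a log2 change of 0.66 (adjusted p = 8.09e-06), and Pgd, a later oxidative enzyme of that pathway, rose by 0.27 (adjusted p = 0.00154). Nnt, the mitochondrial transhydrogenase, fell by 0.37 on the log2 scale (adjusted p = 0.0156).

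Of 17 tested regulators and targets of Nrf2 outside the 10 genes, 4 rose and 4 fell, with a median of 0.01. That median was -0.07 without control replicate 1, -0.02 without control replicate 2 or irradiated replicate 2, 0.05 without control replicate 3, and -0.07 at a minimum mean of 5 FPKM. The risers were Gsr, G6pdx, Gclm and Mafg, and the fallers were Hmox1, Fth1, Ftl1 and Blvrb. Fth1, the ferritin heavy chain, fell from 808 ± 45.3 to 573 ± 6.59 FPKM (adjusted p = 3.40e-05). Mafg, Ftl1 and Blvrb stand outside the naming rule and complete the counts. The genes for Nrf2 itself, Nfe2l2 (-0.18, adjusted p = 0.0571), and for its inhibitor Keap1 (-0.19, adjusted p = 0.106) did not pass the test, and both were chosen by role. Of 13 listed genes for selenoprotein synthesis, selenoproteins or selenium binding, 0 rose and 2 fell by limma, with a median of -0.13. At an unadjusted p under 0.05 the counts were 0 higher and 4 lower. Selenoproteins counted in other lists are not part of these counts, among them Msrb1, which rose, and Gpx1, which did not pass. Selenop, the plasma carrier of selenium, fell from 113 ± 5.43 to 52.3 ± 2.87 FPKM, with a log2 change of -1.10 (adjusted p = 6.26e-07), and Selenow fell by 0.69 on the log2 scale (adjusted p = 0.000469).

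Across these lists 27 different genes passed, where 16.6% of all 10666 genes tested passed. Some lists share genes, and the share that passed among the different listed genes was not computed. Of the 27, 17 passed in all 6 fits that left out 1 library. The other 10 were Txndc16, Tmx4, Pdia4, Glrx, Msra, Msrb1, Arrdc4, Mgst2, Nnt and Mafg. Leaving out control replicate 1, 2 or 3 ended 8, 9 or 6 of the 27 calls, and leaving out irradiated replicate 1, 2 or 3 ended 4, 9 or 4. With no variance trend 7 calls ended, those of Glrx, Gstm1, Mgst2, Msra, Msrb1, Pdia4 and Tmx4, and the call of Pdia4 also ended under median-of-ratios scaling and that of Arrdc4 under quantile normalization. With no filter on low values the thioredoxin-fold list held 0 higher and 1 lower call, the repair and client list 2 higher, and the arrestin list 0 lower.

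**Figure D4:**
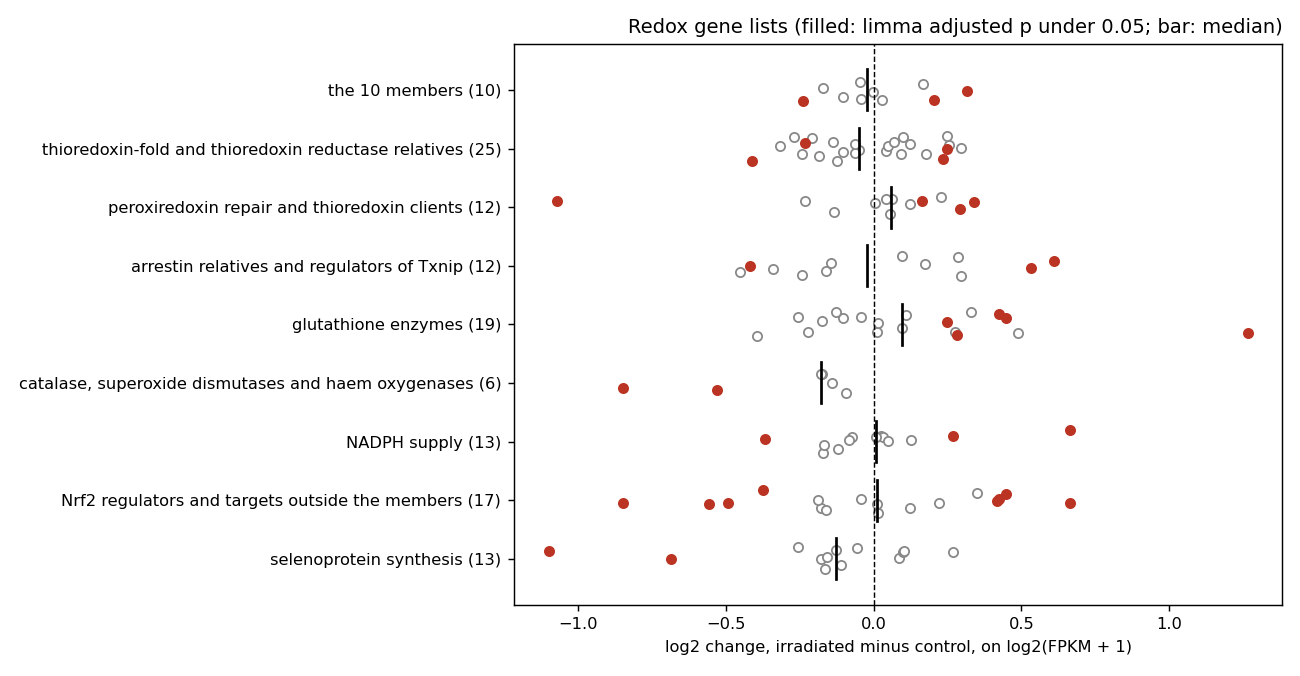
Each row is a gene list with its number of tested genes, each point a gene's log2 change (irradiated minus control, log2(FPKM + 1)), filled at an adjusted p under 0.05, and each bar the median. The medians run from -0.18 for catalase, superoxide dismutases and haem oxygenases to 0.09 for the glutathione enzymes, and the filled points lie on both sides of 0 in 5 of the 8 lists beside the 10 genes.

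The genes most like each changed member over the 6 libraries were picked by Pearson r on log2(FPKM + 1) among 7801 genes of at least 5 FPKM, as a description in which the 2 groups set most of the likeness. For Txn1 these were Scamp1 (r = 0.9996), S100a8 (0.999) and G6pdx (0.999), and 216 genes had an r above 0.95. S100a8, an abundant neutrophil gene, was at 25282 ± 1249 and 39026 ± 427 FPKM. For Prdx5 they were Capn10 (0.993), Cd200r3 (0.99) and Ndufc2 (0.987), with 81 genes above 0.95. For Prdx1 they were Tpm4 (0.998), Slfn8 (0.998) and Ube3a (0.997), with 378 genes above 0.95. Tpm4, a tropomyosin, went from 103 to 77.3 FPKM and Slfn8 from 29.9 to 11.2 FPKM.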

How the data were processed

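The authors deposited 1 table per library with a value per gene, read as FPKM from the values because the file headers give no unit. Per the submitters' processing notes, the tools were fastp, HISAT2 and StringTie and the builds GRCm38 and mm10. Versions, settings and annotation are not given in the sources used. Per the labels' protocols, RNA came from a low-input column kit and libraries from a stranded mRNA kit. The 10666 of 15483 genes that averaged 1 FPKM or more entered limma 3.58.1 (R 4.3.3, lmFit and eBayes with trend) on log2(FPKM + 1). Tests were two-sided, p-values were adjusted by Benjamini-Hochberg, and the threshold was 0.05. The log2(FPKM + 1) scale understates changes of low genes. Standard errors and intervals are limma's. The script was tested on simulated data.

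Shares and ratios were compared by exact permutation over libraries. Relative depth came from genes below 0.1 FPKM, as ratios of whole numbers up to 6 within 0.001. The 10 genes, the gene lists and the markers were chosen with earlier results of these data known. Named were all 10 genes, up to 4 called genes with the lowest p in each list, and the 3 genes of highest r with each called member. Copies were found by BLAST of GENCODE M21 transcripts. The 15 alternatives changed the pseudocount, filter, scaling, variance model or libraries. Samples were grouped by treatment label. Same-numbered replicates were not treated as paired in the main test. Python 3.11.15 was used for tables.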

Additional observations from a re-analysis of the deposited data

How the results depend on the processing

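Txn1 passed in 15 of 15 alternatives, Prdx1 in 14 and Prdx5 in 13, each in its reported direction, and Txnrd1 in 0. With no variance trend, 1 of the 10 genes was higher and 0 lower, since Prdx1 (adjusted p = 0.0600) and Prdx5 (0.122) no longer passed. Leaving out 1 library gave 1 to 2 higher calls among the 10 genes, 1 of them without irradiated replicate 1, and 414 to 684 higher and 709 to 968 lower calls over all genes. The estimates of Prdx3, Prdx6 and Txn2 changed sign in some alternatives, and that of Txnip did not. Prdx3 ranged from -0.0941 to 0.0420 when 1 library was left out. Prdx6 became 0.0263 with median-of-ratios scaling and 0.0299 with quantile normalization, and ranged from -0.0272 to 0.0305 when 1 library was left out. Txn2 ranged from -0.139 to 0.0474. None of these 3 passed in any alternative, and the causes were not tested. The log2 difference of the Txnip ratio was -0.22 against Txn1 plus Txn2. With the replicate block, 558 genes were higher and 948 lower, and 2 and 1 of the 10 genes. The repair and client list then held 1 higher call and the thioredoxin-fold list 1 lower. Same-numbered libraries did not deviate together (correlations of 0.0111, -0.0423 and -0.0228). Control replicate 2 correlated best with irradiated replicate 3 (0.0236) and control replicate 3 with irradiated replicate 2 (0.0508). Such correlations cannot show whether same-numbered libraries were handled together. The depth is relative only, and the shallower irradiated libraries limit precision for genes near the filter.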
